A study of Mus musculus with 6 samples.

Results

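Smooth muscle contractile genes were read as a set of 10 genes chosen by name: Acta2, Tagln, Myh11, Cnn1, Myocd, Smtn, Des, Actg2, Lmod1 and Myl9. All 10 were among the 46983 genes of the count file. Of these 10, 5 had enough reads to be among the 13961 genes tested. The rule used names alone and no measured value, though the genes were chosen with earlier results of these data known.

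The RNAseq data came from GFP+ neural crest cells (NCCs) sorted by flow cytometry from E11.25 mouse embryos, in 3 control and 3 BAF155/170-deficient samples. Control embryos were Wnt1Cre/+;BAF155flox/+;BAF170flox/+;Rosa26mTmG/+ and deficient embryos were Wnt1Cre/+;BAF155flox/flox;BAF170flox/flox;Rosa26mTmG/+. Controls thus carried Cre, the reporter and 1 floxed copy of each subunit gene. Wnt1Cre drives recombination in the dorsal neural tube as well as in NCCs, and GFP marks any cell in which Cre has acted on the reporter. BAF155 and BAF170, encoded by Smarcc1 and Smarcc2, are core subunits of the BAF chromatin remodeling complex.

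Smooth muscle cells contract through actin filaments that slide along myosin, and the genes of this apparatus are switched on together as the cells mature. Serum response factor (SRF) binds a DNA element called the CArG box near many of these genes, and myocardin, the product of Myocd, is its partner in smooth and cardiac muscle. Cardiac NCCs are a source of smooth muscle in the pharyngeal arch arteries and the outflow tract (OFT). Several of the genes are not particular to smooth muscle: Des is expressed in all muscle types, and Acta2 and Tagln also in the early heart. In RNA from a sorted pool, fewer cells of a type and less RNA per cell cannot be told apart.

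The promoters are shown because SRF and myocardin act on such elements. RefSeq promoter windows (GRCm38.p6) were matched for 6 of the 10 genes, Acta2, Des, Myl9, Cnn1, Smtn and Lmod1, and only the 250 bases before the RefSeq start were searched. The GENCODE gene spans given further on begin at other bases: 6 bases upstream of that start for Lmod1, 37 for Cnn1, 44 for Myl9, 217 for Acta2 and 1320 for Smtn, and 37 bases downstream of it for Des. The Smtn window thus lies inside its GENCODE span, as do both boxes of Acta2. Tagln, Myh11, Myocd and Actg2 were not in the table. Capitals mark the CArG box or a variant with 1 G or C among its 6 middle bases. Both have the same form on either strand, and the few that overlap were counted once per promoter. The windows of Acta2 (chr19:34255374-34255623, minus strand), Myl9 (chr2:156775214-156775463, plus strand) and Des (chr1:75360042-75360291, plus strand) read as follows.
Acta2: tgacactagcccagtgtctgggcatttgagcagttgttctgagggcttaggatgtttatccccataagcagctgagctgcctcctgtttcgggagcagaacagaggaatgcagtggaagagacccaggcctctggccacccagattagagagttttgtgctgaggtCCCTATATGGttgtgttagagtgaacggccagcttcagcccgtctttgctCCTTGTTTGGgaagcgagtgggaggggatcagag
Myl9: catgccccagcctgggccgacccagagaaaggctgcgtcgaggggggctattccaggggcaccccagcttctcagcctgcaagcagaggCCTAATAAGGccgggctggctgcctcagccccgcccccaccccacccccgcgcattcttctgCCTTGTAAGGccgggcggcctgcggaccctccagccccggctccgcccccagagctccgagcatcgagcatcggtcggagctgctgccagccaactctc
Des: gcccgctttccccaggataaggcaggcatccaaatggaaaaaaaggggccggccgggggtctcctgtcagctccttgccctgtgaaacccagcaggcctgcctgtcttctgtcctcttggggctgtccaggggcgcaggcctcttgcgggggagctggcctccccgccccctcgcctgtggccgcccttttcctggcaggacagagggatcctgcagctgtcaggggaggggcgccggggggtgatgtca
Acta2 held 2 variant boxes, which began 84 and 34 bases before the RefSeq start. Myl9 held 1 CArG box that began 161 bases before its RefSeq start and 1 variant that began 99 bases before it. No match to either form was found in these windows of Des, Cnn1, Smtn and Lmod1, and other starts of these genes were not searched. Among all 32851 windows of this table, 1.47% held a CArG box and 8.59% a CArG box or a variant. These matches describe letters in the window and not bound sites.

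The 2 targeted genes were read first, in counts per gene, from which the loss of single exons cannot be read. Smarcc1 was at 42.1, 55.0 and 35.1 CPM (counts scaled to library size) in control libraries, against 29.4, 26.4 and 24.5 CPM in deficient ones, lower in each of them. Its log2 fold change was −0.71 (SE 0.156, edgeR quasi-likelihood test, Benjamini-Hochberg adjusted p = 0.0676). Smarcc2 was at 91.8, 89.9 and 92.9 CPM in control and at 85.9, 82.3 and 86.8 CPM in deficient libraries, also lower in each of these. Its log2 fold change was −0.11 (SE 0.0577, edgeR, adjusted p = 0.251). The 6 libraries held between 8191219 and 19808620 counts, and the deeper ones were the deficient ones. Crest markers were low in all libraries against those of macrophages: the 12 macrophage genes, led by Ctss and Lyz2, summed to 11234 to 14330 CPM, and the 19 mesenchymal crest genes, led by Col1a2 and Col1a1, to 154 to 401 CPM. Macrophage marker transcripts were thus abundant in control and deficient libraries alike, and their source was not tested.

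None of the 5 contractile genes that could be tested was called lower or higher in the BAF155/170-deficient libraries. A call needed an adjusted p no higher than 0.1, a log2 fold change of 0.58 or more in size and a mean level of 2 CPM or more. Of the 5 tested genes, 0 were called lower and 0 higher by edgeR, against 4.88% of all tested genes called lower and 0.0573% called higher. DESeq2 and limma-voom also called 0 of them, and 0 had an unadjusted p under 0.05 in any of these 3 fits, against 27.3% of all tested genes in the edgeR fit. In 0 of the 5 did the control and deficient libraries fall into separate ranges, against 31.4% of all tested genes. Acta2, Smtn, Des and Myl9 had a fitted change below 0 and Tagln one above it. The median over the 5 was −0.16 on the log2 scale, and over all tested genes it was −0.02.

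Des and Acta2 had the most reads and so the narrowest errors. Des (chr1:75360329-75368579) encodes desmin, the intermediate filament protein of muscle cells. It was at 19.5, 23.8 and 20.3 CPM in control and at 20.8, 18.9 and 18.4 CPM in deficient libraries. The ranges overlapped, with deficient replicate 1 above 2 of the controls. The log2 fold change of Des was −0.12 (SE 0.108, 95% interval −0.36 to 0.11, edgeR, adjusted p = 0.489).

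Acta2 (chr19:34241090-34255590) encodes smooth muscle alpha-actin, the main actin of vascular smooth muscle. Its level was 12.4, 12.7 and 14.9 CPM in control and 10.4, 12.5 and 11.6 CPM in deficient libraries. The ranges met only at deficient replicate 2, which lay just above control replicate 1. The log2 fold change was −0.22 (SE 0.136, 95% interval −0.51 to 0.08, edgeR, adjusted p = 0.325). For Acta2 and for Des the interval lay inside the fold change of 0.58 that a call required, in both directions.

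Tagln, Smtn and Myl9 stood on fewer reads. Tagln (chr9:45929619-45936058) encodes transgelin, an actin-binding protein that appears early in smooth muscle differentiation. It was at 3.83, 4.55 and 5.83 CPM in control and at 4.54, 5.68 and 5.32 CPM in deficient libraries, so the deficient values lay within the control range. The log2 fold change was 0.12 (SE 0.225, 95% interval −0.37 to 0.62, edgeR, adjusted p = 0.764), and it was −0.01 without control replicate 1. Smtn (chr11:3517523-3540612), which encodes smoothelin, an actin-associated protein of contractile smooth muscle, was at 2.66, 4.01 and 3.61 CPM in control and at 3.45, 3.42 and 2.37 CPM in deficient libraries. The lowest Smtn value was deficient replicate 3, and without it the log2 fold change moved from −0.16 (SE 0.276, 95% interval −0.76 to 0.44, edgeR, adjusted p = 0.749) to 0.01. Myl9 (chr2:156775420-156781658) encodes the regulatory light chain of smooth muscle myosin, whose phosphorylation starts contraction. Myl9 was at 3.30, 4.15 and 2.22 CPM in control and at 2.11, 3.12 and 2.61 CPM in deficient libraries, and the ranges overlapped. Its log2 fold change was −0.27 (SE 0.304, 95% interval −0.93 to 0.40, edgeR, adjusted p = 0.606), and it was −0.05 without control replicate 2 and −0.49 without control replicate 3. For these 3 genes the interval reached past 0.58 on at least 1 side, so a change of the size of a call was not excluded by the measurement.

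**Figure D1:**
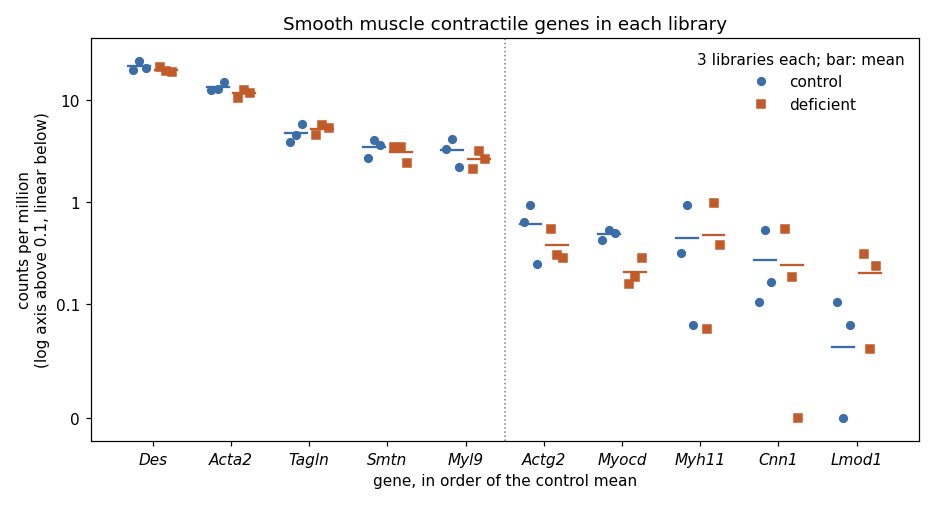
CPM of the 10 smooth muscle contractile genes in each library (vertical axis, log above 0.1 and linear below), in order of the control mean, with controls as circles, deficient libraries as squares and bars at the mean of 3. The 5 genes left of the dotted line passed the filter on low counts and their groups overlapped, and of the 5 on the right only Myocd had groups that did not. Of all tested genes, 31.4% had groups that did not overlap.

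Around 1 common rate for all 6 libraries, the variance of the tested genes was 1.35 to 2.30 times that of read counting alone. This spread includes any difference between the groups, and its excess over counting was not tested. Over all 6 libraries the coefficient of variation was 9.53% for Des, where counting alone would give 6.54%, and 11.95% for Acta2, where it would give 8.30%. It was 15.7% for Tagln, 18.9% for Smtn and 26.2% for Myl9, with counting shares of 12.9%, 16.4% and 17.4%. The sum of all 10 genes was 47.8 ± 4.44 CPM (SD, n = 3) in control and 43.3 ± 1.95 CPM (SD, n = 3) in deficient libraries.

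The other 5 genes were at or near the limit of detection. Myh11 (chr16:14194535-14291372) encodes smooth muscle myosin heavy chain, the most restricted marker of mature smooth muscle. It had 3, 7 and 1 reads in the control libraries and 1, 16 and 8 in the deficient ones. Both groups held a library with 1 read, and the ratio of deficient to control, scaled to library size, was 1.32 (95% counting interval 0.625 to 2.96). It was 2.69 without control replicate 2 and 0.703 without deficient replicate 2, so single libraries set its direction.

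Cnn1 (chr9:22099216-22109630) encodes calponin, which binds actin and slows the myosin motor. It had 1, 4 and 2 reads in the controls and 7, 3 and 0 in the deficient libraries. The 0 of deficient replicate 3 allows a level of up to 0.142 CPM, and the ratio over the groups was 0.827 (95% counting interval 0.284 to 2.56). Without control replicate 2 the Cnn1 ratio was 1.43, without deficient replicate 3 it was 1.43 and without deficient replicate 1 it was 0.333. Actg2 (chr6:83512905-83536265) encodes the gamma-actin of visceral smooth muscle and had 6, 7 and 3 reads in the controls and 7, 5 and 6 in the deficient libraries. The Actg2 groups overlapped, with a ratio of 0.651 (95% counting interval 0.314 to 1.37). Lmod1 (chr1:135324807-135368065), whose protein leiomodin starts new actin filaments in smooth muscle, had 2 reads in all 3 controls together and 10 in the deficient libraries. Its 95% counting interval of the ratio ran from 0.617 to 27.2 around 2.89, and the 0 of control replicate 2 allowed up to 0.401 CPM.

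Myocd (chr11:65176561-65269989) was the only one of the 10 whose groups did not overlap. Groups did not overlap in 31.4% of all tested genes, among which Myocd was not. It was at 0.425, 0.535 and 0.492 CPM in control and at 0.157, 0.183 and 0.285 CPM in deficient libraries, lower in each of these. These values rested on 4, 4 and 6 reads and on 2, 3 and 6 reads. The ratio was 0.455 with a 95% counting interval of 0.187 to 1.08, and a 2-sided exact permutation test gave p = 0.1, the smallest that 3 against 3 libraries allow. In a fit without the filter on low counts, in which all 10 genes were tested, the log2 fold change of Myocd was −1.09 (SE 0.850, edgeR, adjusted p = 0.586). That fit called 0 of the 10 genes in either direction, and 0 had an unadjusted p under 0.05. The intervals cover counting error only.

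Divided by exon length, levels can be compared between genes. The control mean was 6.09 CPM per kb for Acta2, 5.64 for Des, 2.77 for Myl9, 2.38 for Tagln, 0.783 for Smtn and 0.390 for Actg2. The remaining levels were 0.0981 CPM per kb for Cnn1, 0.0754 for Myocd, 0.0587 for Myh11 and 0.0159 for Lmod1. Acta2 and Des overlapped over the control libraries, as did Myl9 and Tagln, and as did neighbours among the 4 lowest. Des lay above Myl9, Tagln above Smtn, Smtn above Actg2 and Actg2 above Myocd, though not above Cnn1, in ranges that did not meet across the controls, with Smtn and Actg2 only just apart at 0.607 and 0.601 CPM per kb. In the deficient libraries the order changed only among neighbours of like level, between Myl9 and Tagln and among the 3 lowest genes.

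**Figure D2:**
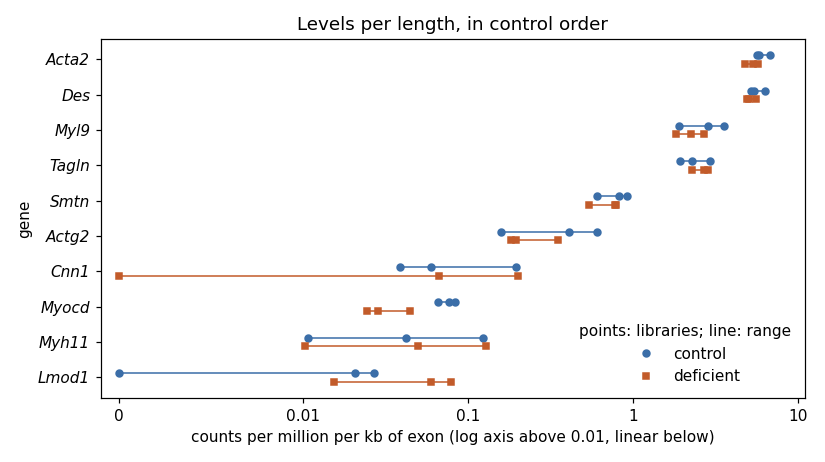
CPM per kb of exon (horizontal axis, log above 0.01 and linear below) of the 10 genes in control order, with a point for each library and a line over the range of 3. Acta2 at 6.09 and Des at 5.64 in the control mean lead, and the 4 lowest genes lie at or under 0.0981.

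Several nonmuscle relatives of these genes were far more abundant. Beta-actin (Actb), a cytoskeletal actin of all cells, was at 2180.5 CPM per kb in the control mean, and the cytoplasmic gamma-actin Actg1 at 152. Vim, the intermediate filament gene of mesenchymal and blood cells, was at 519 CPM per kb beside 5.64 for Des. Myl12a, a light chain of nonmuscle myosin, was at 69.5 CPM per kb beside 2.77 for Myl9. The full list of relatives also held muscle genes at lower levels, such as Acta1 at 2.84 CPM per kb and Lmod3 at 0.478 in the control mean. Of 17 tested relatives, 0 were called lower and 0 higher by edgeR, where 4.88% and 0.0573% of all tested genes were. Their median was 0.06 on the log2 scale. Of the 17, 9 had an unadjusted p under 0.05 (edgeR), a larger share than the 27.3% of all tested genes. In 10 of the 17 the groups did not overlap, also a larger share than the 31.4% of all tested genes. DESeq2 and limma-voom each called 1 of them lower, the nonmuscle myosin heavy chain Myh10, which is named after its values were seen (edgeR −1.02, SE 0.370, adjusted p = 0.169). The change in Actg1 was 0.48 (SE 0.0902, edgeR, adjusted p = 0.0483), short of the fold threshold, with 419, 398 and 392 CPM in control and 595, 475 and 611 CPM in deficient libraries. Sequence shared with such relatives was small for the contractile genes themselves. Of the 50-base words in the transcripts of Acta2, 0.326% also occurred in another gene, and the share was 0.34% for Myh11, 0.0155% for Myocd and 0 for the other 7.

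Other genes of the contractile apparatus were read from a fixed list of 24 partners, of which 20 were tested. Of these 1 was called lower and 0 higher, a share like the 4.88% and 0.0573% of all tested genes, and the median was −0.12 on the log2 scale. Cald1, which encodes caldesmon, a protein that holds actin back from myosin, was at 15.2, 20.6 and 11.9 CPM in control and at 7.83, 7.70 and 7.17 CPM in deficient libraries. All deficient values of Cald1 lay below all control values, and its log2 fold change was −1.06 (SE 0.188, edgeR, adjusted p = 0.0455). A nonmuscle form of caldesmon comes from the same gene, and counts per gene do not separate the forms. The most abundant partners were Csrp1 (log2 fold change 0.19, SE 0.0703, edgeR, adjusted p = 0.119), a LIM protein of the actin cytoskeleton, Tpm4 (0.13, adjusted p = 0.197), a tropomyosin, and Flna (−0.08, adjusted p = 0.492), which crosslinks actin. The Cald1 call was lost without control replicate 1 or without deficient replicate 3, when 0 partners were called, and 2, Cald1 and Pdlim7, were called without control replicate 3.

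Among 19 tested regulators of smooth muscle differentiation, 3 were called lower and 0 higher, and the median was −0.15 on the log2 scale, beside 4.88% and 0.0573% of all tested genes called and a median of −0.02. Tgfb2, a TGF-beta ligand, was at 2.02, 4.55 and 2.79 CPM in control and at 1.17, 0.855 and 0.712 CPM in deficient libraries. Pdgfrb, the PDGF receptor of mural cells, was at 9.25, 13.5 and 6.81 CPM in control and at 3.99, 5.74 and 4.84 CPM in deficient libraries. Ednra, the endothelin receptor of cranial and cardiac crest, was at 4.25, 5.62 and 2.87 CPM in control and at 2.19, 1.34 and 2.47 CPM in deficient libraries. In each of the 3 genes every deficient library lay below every control. Their log2 fold changes were −1.77 (SE 0.395, edgeR, adjusted p = 0.0583), −0.99 (SE 0.254, adjusted p = 0.0728) and −1.05 (SE 0.332, adjusted p = 0.0933). The mean of Tgfb2, 2.02 CPM, was close to the minimum for a call. DESeq2 called 6 regulators lower, limma-voom called Tgfb2 and Pdgfrb, and 0 remained called once control replicate 1, control replicate 2 or deficient replicate 3 was left out.

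The regulators with the highest levels gave small changes. Groups did not overlap for Tgfbr1, which was lower in each deficient library (95% interval −0.36 to −0.02), or for Tgfbr2, which was higher in each. They overlapped for Jag1, and 31.4% of all tested genes had groups that did not overlap. Tgfbr1 and Tgfbr2, the receptors for TGF-beta, had log2 fold changes of −0.19 (SE 0.0763, edgeR, adjusted p = 0.138) and 0.11 (SE 0.0742, adjusted p = 0.377). The Notch ligand Jag1 was at 0.01 (SE 0.0824, edgeR, adjusted p = 0.934). Srf itself, named after its values were seen, was at 37.2 ± 2.57 CPM (SD, n = 3) in control and 35.1 ± 3.28 CPM (SD, n = 3) in deficient libraries, with a log2 fold change of −0.08 (95% interval −0.28 to 0.12).

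**Figure D3:**
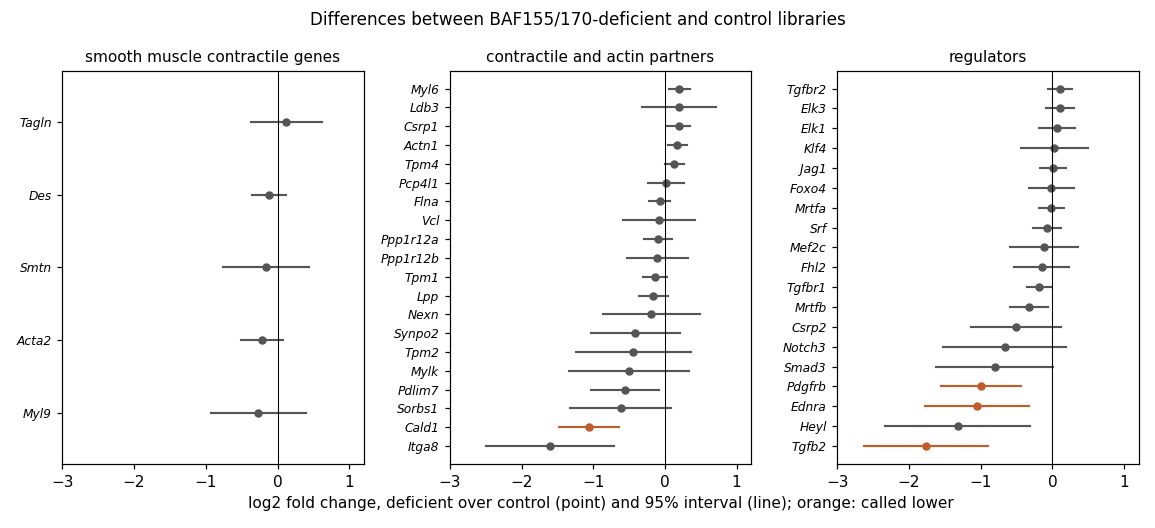
Log2 fold change of deficient over control (horizontal axis, points) with 95% intervals (lines) for the 5 tested contractile genes, their 20 tested partners and 19 tested regulators, with genes called lower in orange. The intervals of the 5 contractile genes all cross 0, and the called genes are Cald1, Tgfb2, Ednra and Pdgfrb.

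Markers of other cell types were read beside the contractile genes, since several of these are shared with other muscle. The 13 cardiac markers summed to 383 ± 29.6 CPM (SD, n = 3) in control and 367 ± 14.8 CPM (SD, n = 3) in deficient libraries, and 0 of the 12 tested were called by edgeR and 0 had an unadjusted p under 0.05. Their spread over all 6 libraries was 6.06%, and their median log2 fold change was −0.08. Myh6, a cardiac myosin heavy chain, was at 125 and 119 CPM in the 2 group means and the cardiac actin Actc1 at 56.4 and 55.8 CPM. Per length, Actc1 was at 34.8 CPM per kb in the controls, above the 6.09 of Acta2. Myh7, the heavy chain that predominates in the embryonic ventricle, and Nkx2-5, a transcription factor of early heart cells, were named after their values were seen, with 5.20 and 0.610 CPM in the control mean. Cardiac transcripts were thus present at near constant levels in all 6 libraries, as Des and Acta2 were, and their part in the levels of Des and Acta2 was not tested.

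Of the skeletal muscle markers 6 were tested and 0 called by edgeR, with 1 at an unadjusted p under 0.05, all 6 below 0 and a median of −0.38 on the log2 scale. Mymk, which drives the fusion of myoblasts, was at 0 in every library. Ckm, a muscle creatine kinase also made in heart, was at 8.20 and 6.87 CPM in the control and deficient means, and Pax3, also a crest gene, at 8.16 and 4.84 CPM. Of the pericyte and mural markers 7 were tested and 1, Pdgfrb, was called lower, with 6 of the 7 below 0 and a median of −0.62. Mcam, named after its values were seen, was at 2.55 and 1.01 CPM in the group means (log2 fold change −1.30, SE 0.395, edgeR, adjusted p = 0.0892), under the minimum level for a call. The list was led by Anpep at 945 CPM in the control mean, a gene that macrophages also express, and by Notch3 at 29.1 CPM. Of the crest lineages, 10 of 15 tested mesenchymal crest markers were called lower (median −0.99), as were 3 of 7 neuronal (median −1.28) and 1 of 4 glial crest markers (median −1.09), beside 4.88% of all tested genes. In the sums, deficient libraries lay at 0.489 to 0.626 of the control mean for the mesenchymal crest list and at 0.869 to 0.950 for the contractile genes. The contractile sum rests mostly on Des and Acta2, which gave 21.2 and 13.4 of its 47.8 CPM in the control mean. The 12 macrophage markers were all above 0 with a median of 0.19, and 0 of them were called by edgeR, with 8 at an unadjusted p under 0.05, beside 0.0573% of all tested genes called higher and 27.3% at such a p. The part of the macrophage transcripts in the contractile levels was not tested.

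**Figure D4:**
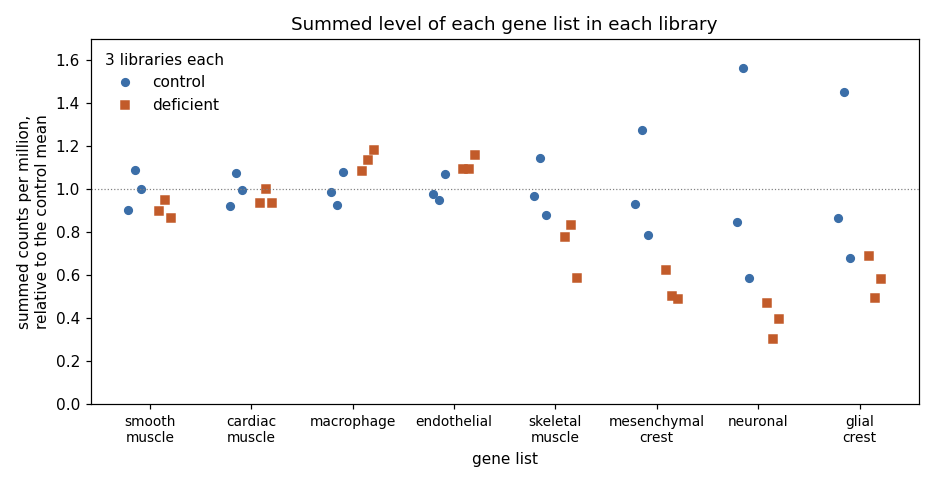
Summed CPM of each gene list in each library, divided by the mean of the 3 controls (vertical axis, from 0). The contractile genes span 0.869 to 1.09 and the cardiac markers 0.923 to 1.08 over all libraries, and the deficient libraries lie at 0.489 to 0.626 for the mesenchymal crest list.

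The values of the contractile genes depended on the scale on which libraries were compared. When the libraries were scaled to the 12 mesenchymal crest markers at 2 CPM or more, which takes these as unchanged, the median of all tested genes became 0.95 on the log2 scale. All 5 tested contractile genes were then called higher, against 9081 of all 13961 genes, with log2 fold changes from 0.73 for Acta2 (edgeR, adjusted p = 0.0793) to 1.06 for Tagln (edgeR, adjusted p = 0.0305). Relative to that median of all genes they ranged from −0.22 for Acta2 to 0.11 for Tagln. Unadjusted p-values in that fit (edgeR) were 0.0529 for Acta2, 0.0513 for Smtn, 0.0550 for Myl9, 0.0276 for Des and 0.00543 for Tagln. Against the whole of the RNA the contractile genes were at like levels in both groups within the intervals given. By construction, scaling to crest markers that fell raises every gene that fell less than they did. The higher values on that scale are thus no separate result about the contractile genes.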

How the data were processed

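RNAseq of GFP-positive NCCs from 3 control and 3 BAF155/170-deficient samples was read, grouped by the genotype in the labels. The authors deposited counts per gene, whole numbers without normalization, in 1 column for each library. According to the methods and the submitters' processing notes, reads of strand-specific poly(A) libraries were trimmed with cutadapt 1.18, aligned to GRCm38 with STAR and assigned with featureCounts. The annotation release, the strand setting and the handling of reads with several positions are not given in the sources used here. On the opposite strand exons of Des (220 bases, Gm15179), Tagln (108 bases, Pcsk7) and Smtn (714 bases, Gm11946; 39 bases, Gm11947) overlap other genes, and reads there are uncertain. Names, positions and exon lengths came from GENCODE mouse release M21, which named 46488 of 46983 identifiers. The 495 others, which stayed in the fit, held 0.0558% to 0.0706% of the counts.

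Counts were fitted in R 4.3.3 with edgeR 4.0.16 (filterByExpr with minimum count 10 and minimum total count 15, TMM, robust quasi-likelihood, genotype only). Thresholds follow the methods. Adjusted p-values are Benjamini-Hochberg over all 13961 tested genes, and p-values measure only the spread between these samples. CPM are counts scaled to the TMM-normalized library size of the kept genes. Alternatives were DESeq2 1.42.0, voom of limma 3.58.1, other scalings, filters and thresholds, a replicate block and each library left out. Genes under the filter are given as ratios of summed counts with exact Poisson intervals. Scripts were tested on simulated data, and figures were made with Python 3.11.15 and matplotlib 3.10.9.

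The contractile genes and all lists were chosen with earlier results of these data known. Named are the 10 genes, Smarcc1 and Smarcc2. From the partners, regulators and relatives, the 3 of highest level and up to 5 called genes by smallest p are named (the 2 of smallest p where none was called). From each marker list the 2 of highest level are named, except that no gene of the endothelial, neuronal and glial crest lists is named.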

Additional observations from a re-analysis of the deposited data

How the results depend on the processing

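With 3 libraries a group, Tagln, Smtn and Myl9 had 25 to 112 reads a library. A change smaller than the distance from the fitted value to an end of its interval could not be told from 0. In 190 of 230 repeats under another setting, the result was counted as the same. Fold changes then kept their direction and their side of the adjusted p threshold, and count ratios stayed inside the main counting interval. Numbers of calls were then equal or close, and ranks were equal. Of the other 40, 13 came from a library left out, 11 from scaling to the mesenchymal crest markers, 8 from levels not divided by length and 8 from other settings. The crest scaling called 5 contractile genes higher, turned Acta2 (0.73), Smtn (0.78), Des (0.85) and Myl9 (0.79) upward, and called 0 partners, 0 regulators and 0 relatives lower against 12 partners, 11 regulators and 12 relatives higher. By construction that scaling raises all genes that fell less than the crest markers.

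Regulators called lower numbered 3, but 6 with DESeq2, 0 at an adjusted p of at most 0.05 and 0 to 5 with a library left out. Partners called lower numbered 1, but 2 by adjusted p alone (Cald1 and Itga8, the latter named after its values were seen) and 0 to 2 with a library left out. Relatives called lower numbered 0, but 1 with DESeq2, 1 with limma-voom, 1 without the filter on low counts (Tagln3, named after its values were seen) and 0 to 1 with a library left out. Relatives called higher numbered 0, but 1 by adjusted p alone (Actg1) and 0 to 1 with a library left out. The causes were not tested. With a library left out, Tagln ran from −0.0087 to 0.32 and Smtn from −0.31 to 0.0054 on the log2 scale, and 0 contractile genes were called by edgeR. Over all genes the calls were 681 lower and 8 higher, 1219 and 26 without control replicate 3, 1030 and 7 without deficient replicate 1, 61 and 0 without control replicate 2, 219 and 45 without deficient replicate 2, 17 and 0 without deficient replicate 3, and 0 and 0 without control replicate 1. Without the length division, 8 of the 10 genes changed rank.

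Replicate numbers are those of the sample titles, while the column names number the controls C1, C2 and C3 and the deficient libraries M2, M3 and M4. Libraries with the same title number did not deviate together in every pair (correlations 0.03, −0.03 and 0.29). By column name, C2 and M2 correlated at 0.26 and C3 and M3 at 0.0004. Neither numbering was taken to pair the samples. With the title number as a replicate block, calls over all genes rose to 1143 lower and 21 higher. In that fit 1 relative, Myh10, was called lower and 0 contractile genes were called.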
